A study of Mus musculus with 14 samples.

Results

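Super-enhancers (SEs) are stretches of chromatin in which several strong enhancers lie close together, and here they were followed by the gene promoters that touched them. Their members were the intervals that the study had called on histone H3 lysine 27 acetylation (H3K27ac) of E10.5 mouse cranial neural crest cells (CNCCs), and not on any contact. Of 2000 intervals at hand, which reach from chromosome 1 to base 28263948 of chromosome 17, 6 on chromosome 6 were left aside and 1994 were described. The list at hand is shorter than the study's, and intervals beyond that point were not analysed here. They were 1.444 to 131.053 kb long, with a median of 19.3 kb, and 1983 of them held at least 1 HindIII fragment that was not itself a promoter bait. These 16243 fragments, a median of 7 per SE, were the places where a promoter contact could be scored.

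An SE raises the transcription of a gene by coming close to its promoter through a loop of chromatin, often across other genes, and cells that build the face use such elements around the genes that set the position of each facial part. CNCCs leave the dorsal neural tube and form most of the skeleton and connective tissue of the face and neck. Those of the frontonasal process, the upper jaw and the lower jaw express no Hox gene, whereas those of the second pharyngeal arch express Hoxa2, a homeodomain factor that gives this arch its identity and is needed for the external ear, the pinna.

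Contacts were measured by promoter capture Hi-C (PCHi-C), in which fixed chromatin is cut with HindIII and ligated, and the fragments joined to promoter-bearing baits are pulled out and sequenced. Wild-type CNCCs carried Wnt1::Cre and a ROSA RFP reporter, so that the Wnt1 promoter marked the neural crest lineage, and were sorted by RFP from E10.5 embryos and from later pinnae. At E10.5 they came from the upper jaw, or maxillary process (Mx), from the lower jaw, or mandibular process (Md), from the frontonasal process (FNP) and from the second arch (PA2), and the pinna was taken at both E12.5 and E14.5. All embryos were of mixed C57Bl/6J;CD1 background. Knockout PA2 cells came from E10.5 Hoxa2EGFP/EGFP embryos, in which EGFP replaces Hoxa2, and were sorted by GFP, so the genotype and the marker of the sort cannot be told apart. Each of these 7 groups had 2 libraries, of sorted pools of cells. Stage and place cannot be told apart for the pinna, which was sampled at the later stages only.

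Each library was a list of fragment pairs with a CHiCAGO score of 5 or more, where the score weighs a contact against the background for its distance. The lists gave no read counts, so the depth of the libraries was unknown, and a pair that was not listed was set to 0 and means a score under 5. They held 119370 to 499756 pairs. Md replicate 1 and E12.5 pinna replicate 2, whose names hold the word merged, stood apart, with 46.46% and 62.7% of their pairs between chromosomes against 2.513% to 5.389% in the others. Only pairs within a chromosome were counted as SE contacts below. A link is a bait with an SE on which it had at least 1 listed pair, its strength is the mean score over all non-bait fragments of the SE, and its summed score is the sum over them. In sorted pools, contact in fewer cells and less frequent contact per cell cannot be told apart. No RNA was measured in these libraries, so neither the labelled cell types nor the genotype could be checked against expression.

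The sequences of 6 SEs are shown first because their links, to genes named below, were called between groups. Those of Msx2, Wnt5a, Gsc, Lrig1 and Twist2 went from 0 or near it to high scores or the reverse, and that of Lhx8 is the strongest link among the transcription factors. Each line gives 300 bases of the plus strand of GRCm38 (mm10) from the SE fragment with the highest summed score over the 14 libraries, at the place with the most matches to 5 short motifs, which are in capitals. The motifs, searched on both strands, were TAATTA (the core that most homeodomain proteins read), TGATNNAT (read by Hox with Pbx), TGACAG (Meis), CAGATG (a Twist-type E-box) and GCCNNNGGC (Tfap2). The windows of Wnt5a and Twist2 lay in introns of Cacna2d3 and Hdac4, and the others were intergenic.
Msx2 link, chr13:53593993-53594292: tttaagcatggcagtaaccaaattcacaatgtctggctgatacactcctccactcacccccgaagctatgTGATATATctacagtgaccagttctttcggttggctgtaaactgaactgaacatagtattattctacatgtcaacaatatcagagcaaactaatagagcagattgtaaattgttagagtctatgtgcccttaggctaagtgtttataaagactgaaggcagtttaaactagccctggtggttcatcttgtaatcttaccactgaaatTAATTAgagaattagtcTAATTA
Wnt5a link, chr14:29107437-29107736: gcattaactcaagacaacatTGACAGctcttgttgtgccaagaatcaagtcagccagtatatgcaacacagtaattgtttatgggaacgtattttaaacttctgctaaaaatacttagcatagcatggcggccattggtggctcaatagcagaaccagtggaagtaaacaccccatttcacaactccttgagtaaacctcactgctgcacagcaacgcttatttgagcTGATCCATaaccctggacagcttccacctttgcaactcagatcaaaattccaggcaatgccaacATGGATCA
Gsc link, chr12:104902739-104903038: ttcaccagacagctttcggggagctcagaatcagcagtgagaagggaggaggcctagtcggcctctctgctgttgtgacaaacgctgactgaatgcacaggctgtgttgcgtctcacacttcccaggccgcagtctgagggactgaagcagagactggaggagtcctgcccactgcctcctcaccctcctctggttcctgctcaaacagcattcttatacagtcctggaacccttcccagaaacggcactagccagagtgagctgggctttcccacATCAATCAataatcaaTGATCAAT
Lrig1 link, chr6:94890085-94890384: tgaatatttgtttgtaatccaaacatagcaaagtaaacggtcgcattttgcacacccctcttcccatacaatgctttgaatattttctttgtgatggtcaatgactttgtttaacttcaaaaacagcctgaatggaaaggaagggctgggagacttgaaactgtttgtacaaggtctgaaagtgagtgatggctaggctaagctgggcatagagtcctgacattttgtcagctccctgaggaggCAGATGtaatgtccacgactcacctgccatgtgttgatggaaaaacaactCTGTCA
Twist2 link, chr1:91952954-91953253: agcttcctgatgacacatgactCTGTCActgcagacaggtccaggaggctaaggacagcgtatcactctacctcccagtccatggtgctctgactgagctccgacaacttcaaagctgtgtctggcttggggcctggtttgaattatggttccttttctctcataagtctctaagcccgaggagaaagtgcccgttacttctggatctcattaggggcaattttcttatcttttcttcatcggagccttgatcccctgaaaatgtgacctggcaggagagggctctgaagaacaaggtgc
Lhx8 link, chr3:154569512-154569811: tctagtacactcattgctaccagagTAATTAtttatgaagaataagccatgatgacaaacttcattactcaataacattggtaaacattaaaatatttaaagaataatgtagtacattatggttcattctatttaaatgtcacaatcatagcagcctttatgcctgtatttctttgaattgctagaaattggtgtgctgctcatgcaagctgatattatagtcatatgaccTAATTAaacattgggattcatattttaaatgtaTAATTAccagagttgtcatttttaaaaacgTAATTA

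The window in the Lhx8 SE held 4 matches to TAATTA and that in the Msx2 SE held 2, together with 1 match to TGATNNAT. Windows of 300 bases at the middle of 14886 SE fragments and of 601399 other non-bait fragments gave the level to read these against. TAATTA was present in 8.79% of SE windows and 10.9% of the others, TGATNNAT in 15.1% and 18.3%, TGACAG in 19.8% and 19%, CAGATG in 23.7% and 22.2%, and GCCNNNGGC in 5.76% and 3.63%. The SE windows were richer in G and C (44.5% against 41.3%). A match is a description of letters and no bound site, and the windows shown were picked for holding the most.

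Between 926 and 1248 SEs had a promoter contact in a single library, which was 52.4% ± 4.90 (SD, n = 14) of the 1994. The lowest values were those of the knockout libraries, 46.7% and 46.4%, and the highest those of the merged Md and E12.5 libraries, 62.2% and 62.6%. A contacted SE met 2.40 ± 0.134 baits (SD, n = 14). Over all libraries 1826 SEs (91.6%) had a link, but 6318 of the 10602 different links (59.6%) were listed in 1 library only. Links listed in both libraries of at least 1 group are called reproducible here. There were 2877 of them, joining 1102 SEs (55.3%) to 2131 baits, and 575 links were listed in all 14 libraries.

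Of the 1102 SEs with a reproducible link, 485 met 1 bait, 255 met 2, 127 met 3 and 235 met 4 or more. Seen from the promoters, 1631 baits met 1 SE, 344 met 2 and 156 met 3 or more. SEs with a reproducible link were longer than those without (median 21.4 against 16.9 kb) and had more baits within 500 kb (median 10 against 7). With more fragments to score, an SE was more often linked: 46.8% of SEs with 1 to 3 fragments, 54.9% with 4 to 7, 58.8% with 8 to 12 and 63.1% with 13 or more.

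The distance between the middle of a bait and the middle of its SE had a median of 299 kb, with lower and upper quartiles of 149 and 616 kb. Links of up to 100 kb made up 16.3% of the total, links over 1 Mb 14% and links over 2 Mb 4.31%. The nearest promoter was not usually the one met. Of the contacted SEs, 264 (24%) were linked to their nearest bait, a median of 2 other baits lay between an SE and its linked bait, and 811 links (28.2%) passed over 5 or more. In single libraries the median distance was 299.7 to 616.9 kb, with the highest values again in the merged Md (586.8 kb) and E12.5 (616.9 kb) libraries.

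**Figure D1:**
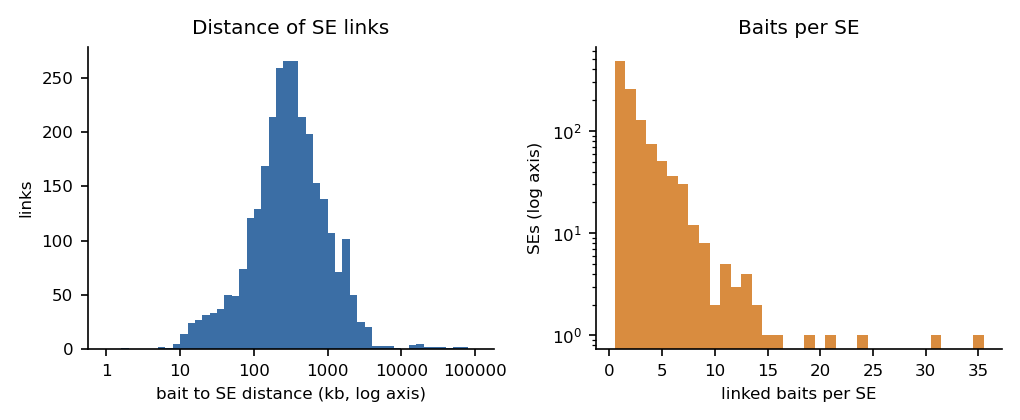
The left panel counts the 2877 reproducible links by the distance from bait to SE in kb (log axis), and the right panel counts the 1102 contacted SEs by the number of baits they met (log axis). Distances centre near the median of 299 kb with a tail beyond 1 Mb, and most SEs met 1 or 2 baits while 23 met 10 or more.

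SEs were contacted more than the chromatin beside them. For each library, the share of SE fragments with at least 1 listed bait was set against the share in flanks as long as the SE on each side, which held 24236 fragments. It was 19.7% ± 1.92 in SEs and 15% ± 1.51 in flanks (SD, n = 14), a difference of 4.71 percentage points that ran from 3.20 to 5.94 and was positive in 14 of 14 libraries (exact sign permutation test, two-sided, p = 0.00012207, the smallest this test can give). The SE fragments were slightly longer (median 2.474 against 2.111 kb). Among fragments of 1 to 10 kb the shares were 21.7% and 17.1%, again with a positive difference in 14 of 14 libraries. The differences were lowest in the knockout libraries and in both E12.5 and E14.5 replicate 1 libraries, at 3.20 to 3.60 points.

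**Figure D2:**
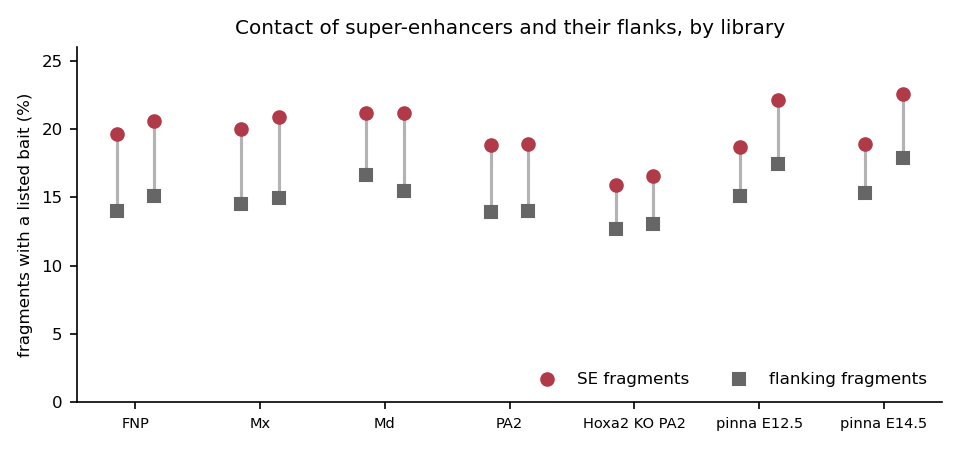
Each point is 1 library, with the share of fragments that had a listed same-chromosome bait in percent on the vertical axis and the 7 groups on the horizontal axis, for SEs and for their flanks. In each of the 14 libraries the SE value lies above the flank value, by 3.20 to 5.94 percentage points.

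Of all same-chromosome pairs with a non-bait end, 4.04% to 5.18% ended in an SE (4.67% ± 0.290, SD, n = 14), while SE fragments were 2.38% of the non-bait fragments on the chromosomes covered. The share did not separate the conditions. Hoxa2-expressing libraries (PA2 and pinna) had 4.61% ± 0.322 (SD, n = 6) and Hox-negative libraries (FNP, Mx and Md) 4.72% ± 0.327 (exact permutation test, two-sided, p = 0.552, adjusted over 3 comparisons 0.667). Pinna libraries had 4.52% and E10.5 wild-type libraries 4.73% (exact permutation p = 0.297, adjusted 0.667). Knockout PA2 had 4.70% and wild-type PA2 4.77% (exact permutation p = 0.667, where 2 against 2 libraries can give no less than 0.333).

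Promoters of genes from 5 lists were counted by whether an SE met them. Of 72 craniofacial transcription factor genes with a bait, 50 (69.4%) had a reproducible SE link and 29 (40.3%) had one in all 14 libraries. For signalling ligands, receptors and feedback genes these counts were 28 (52.8%) and 10 (18.9%) of 53, and for extracellular matrix genes 12 (36.4%) and 3 (9.09%) of 33. All 16585 protein-coding genes with a bait gave 1933 (11.7%) and 460 (2.77%), and 22 housekeeping genes gave 5 (22.7%) and 2 (9.09%). Of 32 markers of epithelium, blood, endothelium, muscle and neurons, 4 were linked: the endothelial genes Pecam1 and Tek and the epithelial keratins Krt5 and Krt8. Pecam1 alone among them was linked in all 14 libraries, with strengths of 1.33 to 5.70. These lists carry no test, since they were chosen with results of these data known.

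**Figure D3:**
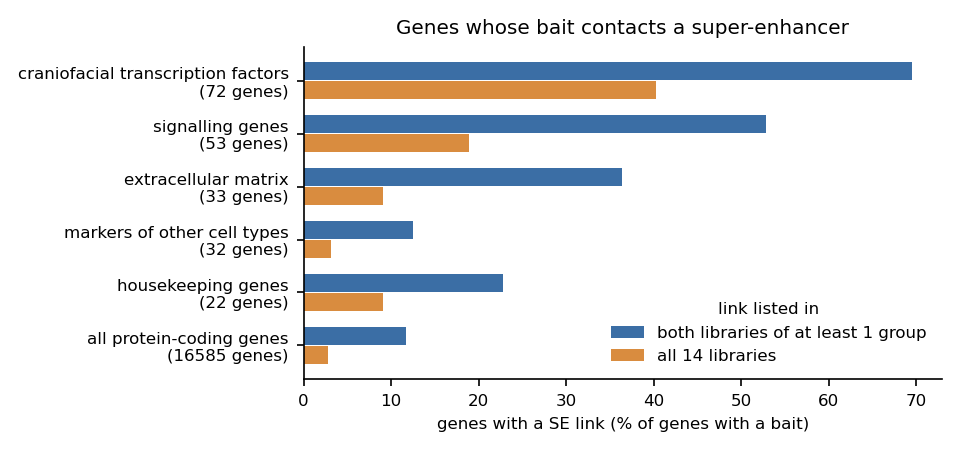
Bars give the share of genes with a bait, in percent, that had a reproducible SE link and that had a link in all 14 libraries, for 5 gene lists and for all protein-coding genes. Craniofacial transcription factors stand highest at 69.4% and 40.3%, against 11.7% and 2.77% of all protein-coding genes.

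Several transcription factor genes had a strong SE link in every library. Lhx8, a LIM homeobox gene of jaw and tooth mesenchyme, met an SE 222 kb away (chromosome 3, 154528462 to 154572821) with strengths of 9.95 to 20.1 and a median of 14.6. Six4, a homeobox gene, met an SE at chromosome 12, 73511265 to 73537898, 413 kb away, with a median of 7.90. Tfap2c, an AP-2 factor of the neural crest, had a median strength of 12.3 over 230 kb, Tbx2 11.2 over 301 kb, and Ebf3 9.73 over 823 kb. Dlx3 and Dlx4 shared the SE at chromosome 11 from base 95231504, with medians of 9.53 and 2.76. Sox9, the master regulator of cartilage, met an SE at 1119 kb with strengths of 2.76 to 7.49.

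Other factors had links whose strength differed in value between places of origin. Hand2, which patterns the lower part of the arches, met an SE 696 kb away with strengths of 17.3 and 21.1 in Md and 15.2 and 15.8 in PA2, against 8.82 to 11.5 in FNP, Mx and the pinna. The knockout libraries, at 13.7 and 13, lay between these ranges. Pitx1, a hindlimb and lower jaw homeobox gene, had strengths of 14.7 and 12 in Md and 2.59 to 9.30 elsewhere. Its Md values lay above all the others.

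Alx1, a homeobox gene of the upper face, had strengths of 5.26 and 7.01 in FNP, 1.89 and 3.23 in Mx, 1.47 and 1.18 in Md and 0 to 1.41 in PA2, knockout and pinna libraries. Tfap2b had 4.66 and 4.50 in FNP and 0 to 1.32 elsewhere. Meis1, a cofactor of Hox proteins, was linked over 132 kb (chromosome 11, SE from 18877777) at 3.42 to 8.82 in the 10 libraries of the FNP, Mx, Md and pinna groups and was at 0 in all 4 PA2 and knockout libraries. The Meis1 bait itself kept 7 to 11 listed pairs in PA2 and the knockout. Of the links in this and the preceding paragraph, none passed a test between the E10.5 populations below. Only that of Hand2 passed any test between groups, that of the E12.5 pinna against PA2.

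**Figure D4:**
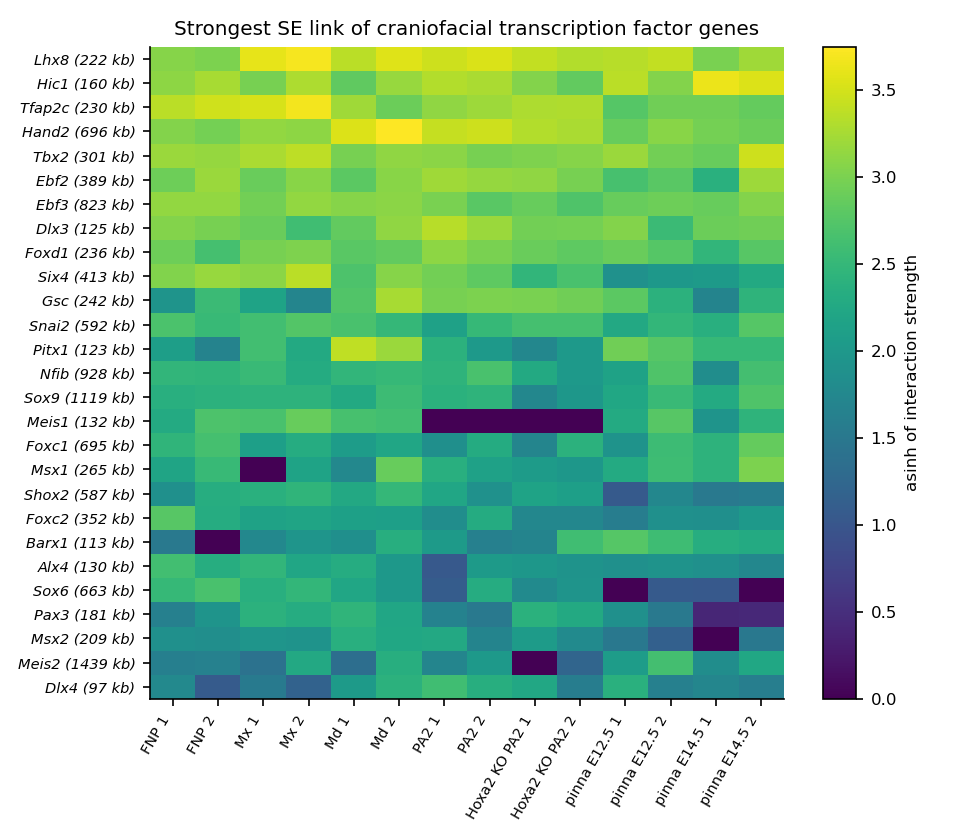
Each line is the strongest SE link of 1 craniofacial transcription factor gene, from among those with the highest median strengths, with its distance in kb, each column is 1 of the 14 libraries, and the colour gives the inverse hyperbolic sine (asinh) of the strength. Lhx8, Hic1, Tfap2c and Hand2 stand at the top with medians of 11.3 to 14.6, and Meis1 is dark in the PA2 and knockout columns only.

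Among signalling genes, Gas1, a co-receptor for hedgehog ligands, had a median strength of 12.6 over 275 kb, the ligand gene Tgfb2 11.4 over 1035 kb and the receptor gene Fgfr1 10.9 over 228 kb. Pdgfra, a growth factor receptor of mesenchyme, met an SE 701 kb away with strengths of 13.4, 14.2, 8.08 and 12.8 in the pinna and 1.23 to 6.14 in the E10.5 libraries, which did not overlap. Sema3a, a guidance cue, was at 0 to 1.47 in FNP, at 1.95 and 4.79 in the E14.5 pinna and at 5.14 to 7.75 elsewhere. The Pdgfra and Sema3a links did not pass a test between groups.

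Among matrix genes, Col1a1, the main collagen of bone, was met over 57.9 kb at 10.3 to 19.5 in every library. Col3a1 had strengths of 3.37 and 5.76 in the knockout and 7.17 to 14.8 in the other libraries. Col5a1 was at 0 to 1.80 at E10.5 and at 4.12 to 7.69 in the pinna, and Col6a1 at 0 to 0.515 and 4.98 to 5.92. The pinna values of Col5a1 and Col6a1 lay above all E10.5 values, but neither link passed a test between groups. The SEs were called on E10.5 cells, so elements that become SEs only in the pinna were not part of the set.

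By strength, which is a mean over the fragments of an SE, the strongest links in all 14 libraries were not those of patterning genes. Summed scores grow with the number of fragments, and an order by them can differ. The highest median strength, 30.3, belonged to the histone bait of Hist1h2ag and Hist1h4i with an SE 1362 kb away at chromosome 13, 23395631 to 23412886, followed by 4933422A05Rik (30.0), Ccar2 (25.9), Gm5176 (22.1), the DNA repair gene Ercc1 (21.2), the bait of Cpsf3 and Itgb1bp1 (19.9), the cell cycle gene Ccnd1 (19.6), Gm10032 (17.2), Magel2 (16.8) and Col1a1 (16.7). Ercc1 fell in 2 ranges, from 19.3 to 36.7 in wild-type E10.5 libraries and from 6.29 to 12.6 in knockout and pinna libraries. The farthest links in all 14 libraries were those of 2 baits of the ephrin receptor gene Epha7 with 1 SE at 3113 and 3110 kb, of a bait of Hist1h2af, Hist1h3g and Hist1h4h with 2 SEs at 2362 and 2281 kb, and of Gm26263 at 2228 kb.

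The SEs that met the most baits lay mostly in gene clusters. That at chromosome 13, 23395631 to 23412886, met 35 baits and that at 23584397 to 23593434 met 31, and both lay in the large histone cluster. The baits of the first included histone, zinc finger and vomeronasal receptor genes and others such as Gpx6 and Btn1a1, and those of the second were mostly histone genes. An SE at chromosome 15, 101966405 to 101995997, met 24 baits, many of them keratin genes, and 12 of these in all 14 libraries. The next were at chromosome 13 from base 21215619 with 21 baits and chromosome 11 from base 69526949 with 19. The baits of the latter were of mixed genes, such as Kdm6b, Shbg and Sox15, and it had 54 baits within 500 kb. Baits of gene families share sequence, and they were not counted as independent. The baits that met the most SEs were those of Gm40271 and Rpl36-ps3, of 3110039I08Rik with Mir125b-1, and of Cdon, a hedgehog co-receptor gene, with 7 SEs each, followed by Ebf3, a factor of mesenchyme, and Sulf2, which trims heparan sulphate, with 6.

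Links listed in one library were often missing from another, also between replicates. Replicates shared 34.9% to 49.2% of the links listed in either (median 43.9%), with the lowest values in Md and E12.5 pinna, the groups with a merged library. Libraries of different E10.5 wild-type populations shared a median of 41.8% (32.9% to 43.6%), and libraries of any different groups 38.2% (26.8% to 43.7%). Each group had 1339 (knockout) to 1598 (Mx) links listed in both libraries.

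Few links were selective, meaning listed in both libraries of 1 E10.5 population and in no library of the other 3. Of the links listed in both libraries, 30 (1.96%) were selective in FNP, 41 (2.57%) in Mx, 34 (2.26%) in Md and 19 (1.33%) in PA2. Counted by fragment pairs, 3.34%, 2.98%, 2.81% and 3.19% of SE pairs were selective in FNP, Mx, Md and PA2. The same count over all pairs of the lists gave 4.22%, 4.11%, 4.42% and 4.13%, so that in each population the share in SEs lay below that of the whole lists. The whole lists also hold pairs between baits and between chromosomes, which SE pairs by definition are not, so these shares differ in kind. The shares of links have no such count beside them.

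The selective links with the highest strength in FNP were those of Ybx3 (9.78 and 6.11), of Meis2, a Hox cofactor gene (3.0 and 3.55 over 207 kb, with 1.26 and 1.27 also in the E12.5 pinna), and of a bait of Gm12306 and Snord118 (3.50 and 2.57). In Mx they belonged to Nlgn2 with Tmem256 (8.80 and 7.59), Mdga2 (3.43 and 4.16) and Angptl7 (3.68 and 3.20). In Md they were Foxp2 over 1414 kb (5.67 and 7.26), Clec2d (6.98 and 5.66) and Slc35g3 (6.17 and 5.22). In PA2 they were Cd3eap with Ercc1 (6.47 and 5.05), the retinoic acid receptor gene Rarg over 96.0 kb (3.49 and 3.23), and Gm23253 (2.20 and 1.73), which was also listed in both knockout libraries (4.36 and 4.18). Foxp2 was listed in 1 library each of the knockout (6.34), E12.5 (5.91) and E14.5 (5.77) groups as well. Clec2d was listed in 1 E12.5 library, and Mdga2, Slc35g3 and Rarg in 1 E14.5 library each.

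Changes between groups were tested in 2 ways with limma over all pairs of the lists, with asinh of the score as the measure and Benjamini-Hochberg adjustment. The first took single fragment pairs, and the second, added after the pairs had been seen, took links by their summed score, so that a contact that moves by 1 fragment within an SE still counts. At high scores a difference in asinh is a difference of natural logarithms. Where a group has no listed pair on a link, the size of the difference depends on the value set for unlisted pairs. Such a difference is not to be read as a fold change. Unlisted fragments can hold scores under the threshold, which the summed score leaves out. The study's methods describe its 2 capture libraries per group as biologically independent.

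FNP differed from the other E10.5 populations by a few links that were lower or not listed there. By summed score, 6 of 2747 SE links were called and all 6 were lower in FNP, beside 0.0223% of all links. Dlx2, a homeobox gene of the first and second arch, met the SE at chromosome 2, 71305593 to 71316930, 232 kb away, with summed scores of 0 in both FNP libraries, 21.8 and 7.07 in Mx, 15.9 and 20.8 in Md and 32.3 and 31.6 in PA2. In the knockout it had 42.9 and 45.9 and in the pinna 5.48 to 11.2. FNP did not overlap the other populations (asinh difference -3.66, SE 0.42, limma adjusted p = 0.0266), although the Dlx2 bait kept 25 and 15 listed pairs there.

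The link of Lhx8 fell as well, with 149 and 140 in FNP against 201 to 282 in the other E10.5 libraries (asinh difference -0.51, SE 0.062, limma adjusted p = 0.0266). The others were Calml3 (0 and 0 against 10.9 to 29.8), Farp1 (0 and 0 against 5.02 to 46.3), Bcas3os2 (0 and 0 against 5.18 to 27.5) and the bait of Mab21l1 and Nbea (6.71 and 11.2 against 29.4 to 43.7). None of these 6 calls held without both merged libraries. The count also rested on single libraries. It was 0 without Mx replicate 1 or any 1 library of Md, PA2 or the knockout, 1 without Mx replicate 2, 2 without either E12.5 library and 3 without FNP replicate 1. By fragment pairs 2 of 6332 SE pairs were called, beside 0.00248% of all pairs, both lower: Jun, an AP-1 factor gene, at 622 kb (0 and 0 against 9.90 to 15.4) and 1 fragment of the Lhx8 SE (0 and 0 against 7.62 to 13.9). This count was 11 and 24 without FNP replicate 1 or 2, 0 without Mx replicate 2 or any 1 library of Md or PA2, and 1 without Mx replicate 1 or any 1 library of the knockout or E12.5 groups. It was 0 without both merged libraries.

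No SE contact of Mx or Md was called by limma, with 0.00372% and 0.0% of all pairs and 0.00524% and 0.00262% of all links called. At an unadjusted limma p below 0.05 there were 411 SE pairs (6.49%, beside 5.66% of all pairs) and 186 SE links (6.77%, beside 6.00% of all links) for Mx. For Md there were 399 pairs (6.30%, beside 5.74%) and 192 links (6.99%, beside 6.37%), so the shares in SEs were near those of the whole lists. The pair fit called 12 and 3 without limma's robust option, 65 and 53 without its trend and robust options, and 118 and 90 with pairs listed in at least 2 libraries. With that filter the fit by summed score called 85 and 90 links, and without a trend it called 6 and 9. Leaving out Mx replicate 1 or 2 gave 4 and 13 pairs for Mx, leaving out Md replicate 1 or 2 gave 1 and 25 for Md, and leaving out Md replicate 2 gave 4 links for Md. The counts under these other settings are given without the share over the whole lists, so they are not read as a result about SEs.

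PA2 differed from FNP, Mx and Md by 2 SE links, beside 0.0262% of all links. Lrig1, which encodes a membrane protein that dampens growth factor receptors, met the SE at chromosome 6, 94875364 to 94921890, 199 kb away. Its summed score was 10.8 and 5.39 in FNP, 0 in all Mx and Md libraries, 38.6 and 27 in PA2, 17 and 28.9 in the knockout, 83.3 and 67.9 in the E12.5 pinna and 79.9 and 111 in the E14.5 pinna. PA2 lay above FNP, Mx and Md (asinh difference 3.26, SE 0.40, limma adjusted p = 0.025). The number of listed pairs of the Lrig1 bait rose with it, from 4 to 12 in Hox-negative libraries to 13 to 19 in PA2 and knockout and 48 to 62 in the pinna.

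The other was Gm24655, at 0 in both PA2 libraries and at 6.93 to 45.0 in FNP, Mx and Md (asinh difference -3.78, limma adjusted p = 0.0231). Neither call held without both merged libraries. The count of links was 0 without any 1 library of FNP, Mx or the knockout or without Md replicate 2, and 1 without Md, PA2 or E12.5 replicate 1 or either E14.5 library. By fragment pairs 2 SE pairs were called, beside 0.0173% of all pairs, 1 each for Gm10748 and Fgfr1, and both were at 0 in PA2 and above 5 in every library of FNP, Mx and Md. The Fgfr1 pair lay in an SE at chromosome 8, 25323689 to 25354789, 180 kb from the bait. The count of pairs was 18 and 15 without PA2 replicate 1 or 2, and 1 without FNP replicate 2, Mx replicate 1 or Md replicate 1. It was 0 without both merged libraries.

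All Hoxa2-expressing wild-type libraries were then set against all Hox-negative ones, a comparison that also holds the difference in stage. It called 11 of 2584 SE links, 4 higher and 7 lower, beside 0.165% of all links. Of the 11, 6 were listed in fewer than 4 libraries outside the group in which they were high, so that they entered the test only through that group. These were Lrig1, Msx2, Gm13134, Crnde, Gm25376 and a bait without an annotated start site, for which no p is given here. Lrig1 had summed scores of 27 to 111 in the 6 PA2 and pinna libraries and 0 to 10.8 in the 6 FNP, Mx and Md libraries, which did not overlap. Also higher were 2810442N19Rik and a bait without an annotated start site near an SE of chromosome 1 from base 57477113.

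Msx2, a homeobox gene that acts downstream of BMP signals, met the SE at chromosome 13, 53542946 to 53619840, 108 kb away, with summed scores of 45.4 to 54.5 in all 6 Hox-negative libraries, 29.6 and 15.8 in PA2, 16 and 18.9 in the knockout and 0 in all 4 pinna libraries. The Msx2 bait had 23 to 27 listed pairs in Hox-negative libraries and 1 to 10 in the pinna. Another SE of Msx2, 209 kb away, had strengths of 3.10 to 5.23 in Hox-negative libraries and 0 to 2.14 in the pinna. Eya1, a transcriptional cofactor that is needed for the ear, fell from 38.5 to 91.4 in Hox-negative libraries to 0 to 21.2 in PA2 and pinna (SE at chromosome 1 from base 14442503, 168 kb, asinh difference -2.20, SE 0.42, limma adjusted p = 0.031).

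Six4 and the bait of Hist1h2ag and Hist1h4i were lower too, by 0.75 and 0.58 on the asinh scale, with overlap between the groups for Six4. The remaining lower links were those of Gm13134, Crnde and Gm25376, the last of which met the same SE as Alx1. Without both merged libraries none of the 11 calls held. The count was 1 without FNP replicate 1, FNP replicate 2, Mx replicate 2 or E12.5 replicate 1, 2 without Mx replicate 1, E12.5 replicate 2 or E14.5 replicate 1, and 3, 4 and 5 without Md replicate 1, Md replicate 2 and E14.5 replicate 2. It was 31 and 44 without PA2 replicate 1 or 2. By fragment pairs 1 of 5888 SE pairs was called, beside 0.0373% of all pairs, a fragment of the Six4 SE (asinh difference -0.75, limma adjusted p = 0.000172), and 5 and 2 were called without PA2 replicate 1 or 2.

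Between E10.5 PA2 and the E12.5 pinna, which arises from it, 18 SE links were called, 6 higher and 12 lower at E12.5, beside 0.212% of all links. Links gained included Twist2, a mesenchymal bHLH factor of skin and bone. It met an SE at chromosome 1, 91952355 to 91969032, 160 kb away, with summed scores of 0 in all 8 wild-type E10.5 libraries. The knockout had 5.08 and 5.31, the pinna of E12.5 41.3 and 52.9 and that of E14.5 21.3 and 22.2. Outside the pinna this link was listed in the knockout libraries only. It thus reached the filter of 4 libraries through the pinna, where it was high, and no p is given for it. The Twist2 bait had 1 to 10 listed pairs at E10.5 and 34 to 45 in the pinna. Twist2 had reproducible links to 4 SEs, so it was not without SE contact at E10.5. Its strongest link, to an SE 211 kb away, was listed in 13 libraries. Strengths there were 0 to 2.075 in wild-type E10.5 libraries, 2.8 and 5.91 in the knockout and 6.96 to 10.8 in the pinna.

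Gm23364, a bait beside the same SE as Lrig1, was at 0 in all E10.5 libraries, with 51.5 and 48 in the E12.5 pinna and 16.7 and 5.20 in the E14.5 pinna. It is among the 6 higher calls, but it entered the test only through the 4 pinna libraries in which it was listed, so no p is given for it. Gm24655 and Gm10748 were higher as well, and 2810442N19Rik and Cdon rose by 0.53 and 0.48 on the asinh scale from high scores in every library. The Lrig1 link itself was not called here.

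Among the 12 lower links was that of Wnt5a, a ligand that directs outgrowth. It met an SE at chromosome 14, 29101432 to 29115136, 605 kb away, with summed scores of 62.6 and 63 in FNP, 51.6 and 52.8 in Mx, 17 and 33.4 in Md, 19.8 and 36 in PA2 and 25.2 and 23.7 in the knockout. It was at 0 in all 4 pinna libraries (asinh difference of E12.5 from PA2 -3.98, SE 0.47, limma adjusted p = 0.00989), and the bait still had 17 to 30 listed pairs there. No fragment of this SE was listed with Wnt5a in the pinna, so the size of this difference rests on the value set for unlisted pairs.

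Gsc, a homeobox gene of the lower jaw and middle ear, met an SE 420 kb away with summed scores of 13.3 to 41.3 in the E10.5 libraries, 5.08 and 0 at E14.5 and 0 in both E12.5 libraries (asinh difference -4.22, SE 0.67, limma adjusted p = 0.0322). Its bait had 22 to 32 listed pairs in the pinna. Another SE of Gsc, 242 kb away, was listed in all 14 libraries. Its strengths were 2.645 to 12.985 in the E10.5 libraries and 2.63 to 8.24 in the pinna. Foxd2 and its neighbour 9130410C08Rik met 1 SE at chromosome 4 from base 114766346. It gave 31.1 and 45.9 for Foxd2 in PA2, 0 in both E12.5 libraries and 0 and 5.22 in the E14.5 libraries (asinh difference of E12.5 from PA2 -4.33, SE 0.71, limma adjusted p = 0.0366). For 9130410C08Rik the pinna was at 0 throughout (asinh difference -4.43, SE 0.50, limma adjusted p = 0.00929).

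Msx2 was lower in this comparison (asinh difference -3.77, SE 0.45, limma adjusted p = 0.00989), as were Marcks, Ctss, Btn1a1, Zfp184, Six4, Hand2 and a bait without an annotated start site. Hand2 fell by 0.46 on the asinh scale, from 227 and 237 in PA2 to 132 and 163 at E12.5. Without both merged libraries the E12.5 group is 1 library, whose spread is taken to be that of the other groups. In that fit 6 of the 18 links were called, those of Wnt5a, Msx2, 9130410C08Rik, Gm24655, Hand2 and Marcks. Gm23364 could not be tested there. The count was 2 and 1 without PA2 replicate 1 or 2, 5 without Mx replicate 2, 7 without knockout replicate 2, 8 without FNP replicate 1, FNP replicate 2, Mx replicate 1 or knockout replicate 1, and 11 without Md replicate 2. By fragment pairs 2 SE pairs were called, both higher, beside 0.065% of all pairs. These were the Gm10748 and Fgfr1 pairs that were at 0 in both PA2 libraries, which are the controls here as well. The count of pairs was 8 and 11 without PA2 replicate 1 or 2, 4 without knockout replicate 2, and 30 and 25 without E12.5 replicate 1 or 2.

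**Figure D5:**
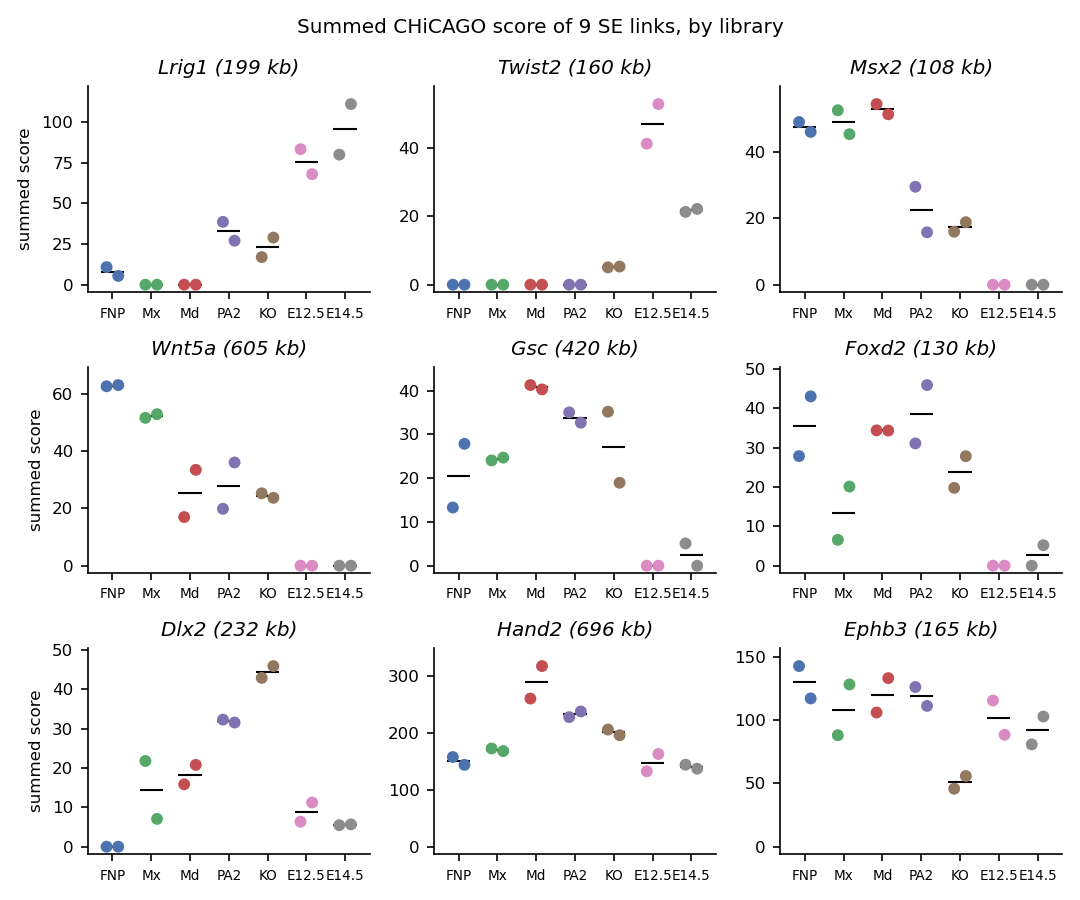
Each panel plots the summed CHiCAGO score of 1 SE link (vertical axis) in the 7 groups (horizontal axis, KO for the knockout), with a point for each library and a line at the mean of the group, and the distance in kb in its title. The plotted links of Lrig1 and Twist2 are highest in the pinna, and those of Msx2, Wnt5a, Gsc and Foxd2 fall to 0 or near it there. The Dlx2 link is at 0 in FNP only, that of Hand2 is highest in Md, and that of Ephb3 is lowest in the knockout. Twist2, Msx2, Wnt5a, Gsc, Foxd2 and Ephb3 also had links to other SEs, which are not plotted.

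From the E12.5 to the E14.5 pinna, 8 SE links were called, 2 higher and 6 lower, beside 0.21% of all links. The E14.5 tissue was dissociated with papain and the other tissues with trypsin, which cannot be told apart from the stage here. Pax3, a paired-box gene of the early neural crest, met an SE 181 kb away with summed scores of 26 to 69.4 in the E10.5 libraries, 38.1 and 26.1 at E12.5 and then 5.02 and 5.40 at E14.5 (asinh difference -1.79, SE 0.22, limma adjusted p = 0.00536). The Pax3 bait had 52 and 46 listed pairs in the E12.5 libraries and 19 and 18 in the E14.5 ones. Stra8 (19.2 and 22.2 at the earlier stage), Gpx7 (10.7 and 18.5), the bait of Bivm and Kdelc1 (6.62 and 26.6), Zfhx4 and a bait without an annotated start site were at 0 in both E14.5 libraries. The Stra8 bait kept 0 and 1 listed pairs at E14.5.

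Btn1a1, in the histone cluster, and a bait of chromosome 8 without an annotated start site were higher at E14.5, both from 0 in the E12.5 libraries. Without both merged libraries, with 1 E12.5 library left and the spread taken from the other groups, Stra8, Gpx7 and Pax3 were called. By fragment pairs 3 SE pairs were called, all lower, beside 0.152% of all pairs, for Pom121l2, Prss16 and Stra8. The count of links was 4 or 5 without any 1 E10.5 library, 16 without E12.5 replicate 1 and 31 without E14.5 replicate 2. That of pairs was 33, 31, 14 and 76 without the E12.5 and E14.5 libraries in turn.

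The knockout of Hoxa2 went with lower scores across the lists. The 2 knockout lists were the shortest, and 96.5% of all called pairs were lower in the knockout. The median difference from wild-type PA2 was -0.11 on the asinh scale over all links tested and -0.16 over SE links, and calls are to be read against that shift. By summed score 27 of 2747 SE links (0.983%) were called, 2 higher and 25 lower, beside 0.757% of all links. By fragment pairs 87 of 6332 SE pairs were called, 3 higher and 84 lower, which is 1.37% beside 1.29% of all pairs. The share in SEs was therefore near that of the whole lists.

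Among the lower links, Ephb3, an ephrin receptor gene, met an SE at chromosome 16, 21339087 to 21406532, 165 kb away, with summed scores of 126 and 111 in wild-type PA2, 45.8 and 55.9 in the knockout and 80.8 to 143 in the other libraries (asinh difference -0.85, SE 0.15, limma adjusted p = 0.0242). The Ephb3 bait had 29 and 26 listed pairs in PA2 and 22 and 22 in the knockout. Tle3, a co-repressor gene, had 115 and 116 in PA2 and 48.3 and 57.8 in the knockout (asinh difference -0.78, SE 0.14, limma adjusted p = 0.0329). Mllt3 (54.8 and 40.3 to 9.10 and 9.27) and Casz1 (43.8 and 40.1 to 14.2 and 11.0) fell in the same way.

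Others were at 0 in both knockout libraries, such as Cdkn1c, a brake on the cell cycle (6.58 and 12.9 in PA2), Id3, an inhibitor of bHLH factors (10.6 and 7.60), and the imprinted gene Mest (11.5 and 17.8). For some baits nearly the whole list went. The bait of Cpsf3 and Iah1, whose summed score was 84.1 and 87.1 in PA2 and 0 and 5.78 in the knockout, had 126 and 127 listed pairs in PA2 and 3 and 17 in the knockout, and that of Borcs5 had 30 and 18 against 0 and 0.

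The 2 higher links were 9630013K17Rik (0 and 0 in PA2 against 14.6 and 11.7), which was listed in 2 other libraries only and so entered the test through the knockout, and Gm24655 (0 and 0 against 7.46 and 7.87). The 3 higher pairs, of Itgb7, Gm10748 and Fgfr1, were also at 0 in both PA2 libraries and were listed in every other library. Lower pairs of genes on the lists were those of Ebf3, Fgfr1, Gas1, Col3a1, Tbx2, Ephb3 and Sox9. For Fgfr1, 2 fragments of the SE at 180 kb were lower and another was higher. The Sox9 pair fell from 17 and 18.7 to 7.22 and 8.24 (asinh difference -0.84, SE 0.19, limma adjusted p = 0.0433). With the libraries set to one distribution by quantile normalization, 12 links were called, 11 of them among the 27. Of the links named here, those of Ephb3 (limma adjusted p = 0.0546), Cdkn1c (0.0579), Id3 (0.0759), Casz1 (0.078) and Mest (0.0809) were no longer called in that setting, and those of Tle3, Mllt3, Borcs5, the bait of Cpsf3 and Iah1, and Gm24655 were. Without both merged libraries 22 of the 27 held, without Mx replicate 1 there were 15 calls, and without PA2 replicate 1 or 2 there were 2 and 4. The pairs called were 132 and 155 without knockout replicate 1 or 2 and 293 without both merged libraries.

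Across the comparisons above there were 72 calls by summed score, of 64 different SE links, and several comparisons share the PA2 or E12.5 libraries. A call was tried under up to 21 other settings, leaving out single libraries included, and held in 3 to 21 of them (median 11). The Wnt5a and Msx2 links were called between PA2 and E12.5 in 19 of 21 settings and Pax3 in 20 of 21. The call of Lrig1 in PA2 held in 6 of 21. Farp1 was called in 3 of 21, Zfhx4 in 4, Ext2 in 5, Twist2 and Lhx8 in 7, Foxd2 in 8 and Gsc in 9. Calls on links with high scores in every library were lost without limma's trend option. These included Lhx8 in FNP (limma adjusted p = 0.769), Hand2 and Cdon at E12.5 (both 0.695), and Tle3 (0.48) and Ephb3 (0.411) in the knockout.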

How the data were processed

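Promoter capture Hi-C had been done on 14 libraries of 7 groups. The authors ran HiCUP against GRCm38 (mm10) to truncate, map and filter the reads, and CHiCAGO on HindIII fragments to call interactions in each library, after base calling with bcl2fastq 2.17 as named in the submitters' processing notes. The deposited values are CHiCAGO scores of fragment pairs, of which only those of 5 or more are listed, with no read counts and no normalization between libraries. Depth was therefore unknown, and no interval for counting error could be given. The SEs were those of the study's supplementary list, which it had called on merged E10.5 H3K27ac peaks within 12.5 kb of each other and outside 2.5 kb of promoters. The list at hand held 2000.

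A fragment seen as a bait in any file was a bait. Non-bait fragments overlapping an SE were its members, and bait genes came from annotated transcription start sites of the GRCm38 reference. Scores were compared on the asinh scale with limma 3.58.1 in R 4.3.3. Fragment pairs listed in at least 4 libraries were fitted as 7 group means, with eBayes trend and robust options, and Hoxa2-expressing against Hox-negative libraries as 2 group means. The fit by summed score, in which the genome outside the SEs was cut into runs of 7 non-bait fragments and eBayes had a trend only, was chosen after seeing the data, as were the alternatives without both merged libraries, without the robust option and with fragments of 1 to 10 kb. Both fits were tested on simulated data first. Shares were compared with exact permutation tests (SciPy 1.17.1). Figures used matplotlib 3.10.9, and Python 3.11.15 did the rest. The alternatives were another score threshold, equal list lengths, a distance limit of 2 Mb, other filters, scales and eBayes options, quantile normalization, a replicate block, and leaving out each library.

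The members and the gene lists were chosen with earlier results of these data known. Named by rule were the 10 strongest and 5 farthest links in all 14 libraries, the 5 SEs and 5 baits with the most partners, up to 3 higher and 3 lower calls per comparison whose groups did not overlap, the 3 strongest selective links of each E10.5 population and the genes of the lists. Other called links are named because few were called. Sequences were read from the GRCm38 reference genome, and the 6 SEs of chromosome 6 that were left aside were not analysed here. A few genes and their links are not reported here.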

Additional observations from a re-analysis of the deposited data

Results flagged for a closer look

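5 measures per library were looked at within the Hox-negative, the Hoxa2-expressing and the pinna libraries, 15 sets in all, for a library far from the rest of its set by Dixon's criterion, which chance meets in about 1 in 20 sets. Md replicate 1 had the largest share of contacted SEs among Hox-negative libraries (62.2%, the others 51.6% to 53.6%) and the smallest SE excess over flanks (4.53 percentage points, the others 5.49 to 5.94). Md replicate 2 had the most baits per contacted SE among them (2.63, the others 2.39 to 2.47). E12.5 pinna replicate 2 had the largest share of contacted SEs among Hoxa2-expressing libraries (62.6%, the others 48.9% to 53.6%). Its median link distance of 616.9 kb stood apart both among Hoxa2-expressing and among pinna libraries, where the others had 299.7 to 347.7 kb.

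Pairs between chromosomes were not counted as SE contacts in any comparison. Those that ended in an SE numbered 1500 in Md replicate 1 and 3461 in E12.5 pinna replicate 2, against 34 to 83 in the other libraries, while the share of between-chromosome pairs that fell in SEs was 1.01% and 1.12%, against 0.694% to 1.23%. Both of these libraries carry a name that says merged.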

How the results depend on the processing

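Counts below are in the order FNP, Mx, Md, PA2, knockout, E12.5, E14.5 and Hoxa2-expressing against Hox-negative. The SE excess over flanks, its sign in every library and the median distances kept their direction and size under all alternatives run. The 72 link calls held in 3 to 21 of up to 21 settings (median 11). A score threshold of 10 gave 13.8% of SEs contacted, 1.53 baits per SE, 563 reproducible links and a reversed knockout difference in the share of pairs (0.252 percentage points). The same number of top pairs per library (119109) gave 43.8% and 2.18 baits, and baits within 2 Mb gave 46.7%. Without E12.5 replicate 2 the Hoxa2 difference in share turned to 0.00031 percentage points. Single libraries left out gave excesses of 4.62 to 4.83 percentage points, 51.6% to 52.9% of SEs, 2.38 to 2.42 baits, 364.6 to 389.0 kb, 2702 to 2805 links, and differences in share of -0.124 to -0.0326 (knockout), -0.209 to 0.00031 (Hoxa2) and -0.359 to -0.0508 (pinna). They gave 0 to 24, 0 to 13, 0 to 25, 1 to 18, 63 to 155, 2 to 30, 3 to 76 and 1 to 5 called SE pairs, and 0 to 8, 0 to 0, 0 to 4, 0 to 2, 2 to 38, 1 to 27, 4 to 31 and 1 to 44 called SE links.

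Counts of pairs moved as follows. A filter of 2 libraries gave 121, 118, 90, 104, 363, 202, 244 and 6, no trend or robust option gave 66, 65, 53, 70, 165, 120, 64 and 104, and a trend without robust gave 18, 12, 3, 12, 152, 93, 48 and 0. Log2(score + 1) gave FNP 1, capping at 20 gave Mx 1 and Hoxa2 32, quantile normalization Mx 1 and Hoxa2 17, and 7 group means Hoxa2 18. Without both merged libraries FNP and PA2 had 0, the knockout 293, E12.5 33 and E14.5 42. Counts of links moved to 100, 85, 90, 97, 135, 104, 84 and 111 with a filter of 2 libraries and to 11, 6, 9, 18, 59, 76, 30 and 43 without a trend. Log2 gave E14.5 5 and Hoxa2 26, quantile normalization the knockout 12 and Hoxa2 27, the robust option FNP 14, Md 3, PA2 4 and Hoxa2 99, and 7 group means Hoxa2 170. Without both merged libraries FNP, PA2 and Hoxa2 had 0 links. With a replicate block, FNP had 1 pair, Hoxa2 2 pairs and PA2 1 link, and no other count moved by more than 1.5 times. For pairing, the deviation of replicate 1 from its group mean was compared between groups. These deviations correlated at 0.00135 to 0.0799 (median 0.0178), below the 0.1 set for pairing, so the block stands only here. The causes were not tested. Depth is unknown, and 2 libraries a group and a list cut at a score of 5 limit what can be seen.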

Other observations

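Contacts between chromosomes gave a few recurrent pairs. Of 5477 different between-chromosome pairs that ended in an SE, 5424 were listed in 1 library, 53 in 2 or more, 9 in 4 or more and 0 in all 14. A bait of Fhl4 and Tmem263 on chromosome 10 met 2 fragments of an SE of chromosome 16 from base 72831960 in the same 5 libraries, all replicate 1 (Mx, Md, PA2 and the pinna of E12.5 and of E14.5), with scores of 32.11 to 66.85 on 1 fragment and 21.06 to 45.5 on the other, and in none of the replicate 2 libraries. Wnt1, a ligand gene of the dorsal neural tube whose promoter drove the Cre of the wild-type cells, met 2 fragments of an SE of chromosome 11 from base 5391292 in 4 libraries each, at 11.74 to 18.64 and 5.66 to 11.88.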
